A study of Rattus norvegicus with 24 samples.

Results

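Hexachloroethane, an ethane in which every hydrogen is replaced by chlorine, was given to 4 male rats, and the liver RNA of each was hybridised to an array of its own beside vehicle RNA. These 4 arrays were selected by their compound label and are 4 of the 24 in the study. The study set 4 compounds that its design calls carcinogens, hexachloroethane among them, beside 2 that it calls non-carcinogens. Hexachloroethane was dosed at 500 mg/kg/day in corn oil. The other rats received 1,2,3-trichloropropane at 50, 1-amino-2-methylanthraquinone at 150, 3-(4-chlorophenyl)-1,1-dimethylurea at 250 or 1,2-dichlorobenzene at 300 mg/kg/day, also in corn oil, or tetracycline hydrochloride at 1000 mg/kg/day in water, with 4 rats on each. All were F344 rats, an inbred strain, bought at 4 weeks of age, labelled as 5 weeks old and gavaged once a day at 5 ml/kg for 28 days. Treated RNA carried the dye Cy3 and vehicle RNA the dye Cy5 on each array. Control rats were pooled for the vehicle RNA. The labels do not say whether the same pool was used on all 4 arrays of a compound, and it is taken here as 1 control sample. The spread between control rats therefore enters no test.

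The liver reduces and dechlorinates hexachloroethane with cytochromes P450. Foreign compounds commonly raise these enzymes through the nuclear receptors CAR and PXR, while electrophiles and oxidants release the factor Nrf2, which drives glutathione and quinone metabolism. The proteasome, a barrel of alpha and beta rings with a cap that unfolds ubiquitin-tagged proteins, clears damaged proteins. The factor ATF4 drives amino acid synthesis and transport when amino acids run short or the endoplasmic reticulum is under stress.

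Rat 1 stood apart from rats 2, 3 and 4. Over the 12079 genes tested, its log2 ratios correlated with those of the other rats at 0.58, 0.52 and 0.55, against 0.74 to 0.82 among rats 2, 3 and 4. These correlations run across genes, which are not independent. All 4 arrays share a slide and, as taken here, a vehicle pool. Rat 1 lay farthest from the median of the 4 rats in 4893 genes. From 70.0 to 71.5% of the probes were well above background for treated RNA on these arrays, and from 73.9 to 76.2% for vehicle RNA. The number of arrays limits the precision.

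All values below are log2 ratios of treated over vehicle, as the mean ± SD over the 4 rats (n = 4), unless a difference from the other 5 compounds is named. That difference is hexachloroethane's mean less the mean of the other compounds, from the same fit. A gene passed at a Benjamini-Hochberg adjusted p under 0.05 in limma over all 12079 genes, and was called if it also differed at least 2-fold. The p-value rests on a residual variance pooled over the rats of all 6 compounds, and does not measure the SD given beside it. Against vehicle, 104 genes (0.861% of those tested) were called, 55 higher (0.455%) and 49 lower (0.406%). Without rat 1 the count was 121, with 56 higher and 65 lower, and without rat 3 it was 90. By the adjusted p alone 2194 genes (18.2%) were higher and 2928 (24.2%) lower, 42.4% in all, so a list with about these shares is near the background. Against the other 5 compounds 74 genes (0.613%) were called, 12.6% of all genes passed as higher and 14.7% as lower, 27.3% in all. The 2 comparisons share the hexachloroethane arrays, and their values are given side by side. Of the 104 genes, 34 did not pass in either direction against the other 5.

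A dye effect alike on all arrays stays in the ratio to vehicle and cancels in the difference from the other compounds. The main values were scaled with loess, which removes a trend of the ratio with brightness. Centring each array on its median alone moved the median of the genes tested to -0.30 and turned the 55 higher and 49 lower into 24 and 628. Taken relative to that shift, the split was 129 higher and 236 lower. Values under this relative scaling, called median-only scaling below, are given wherever they turn a group's direction.

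**Figure D1:**
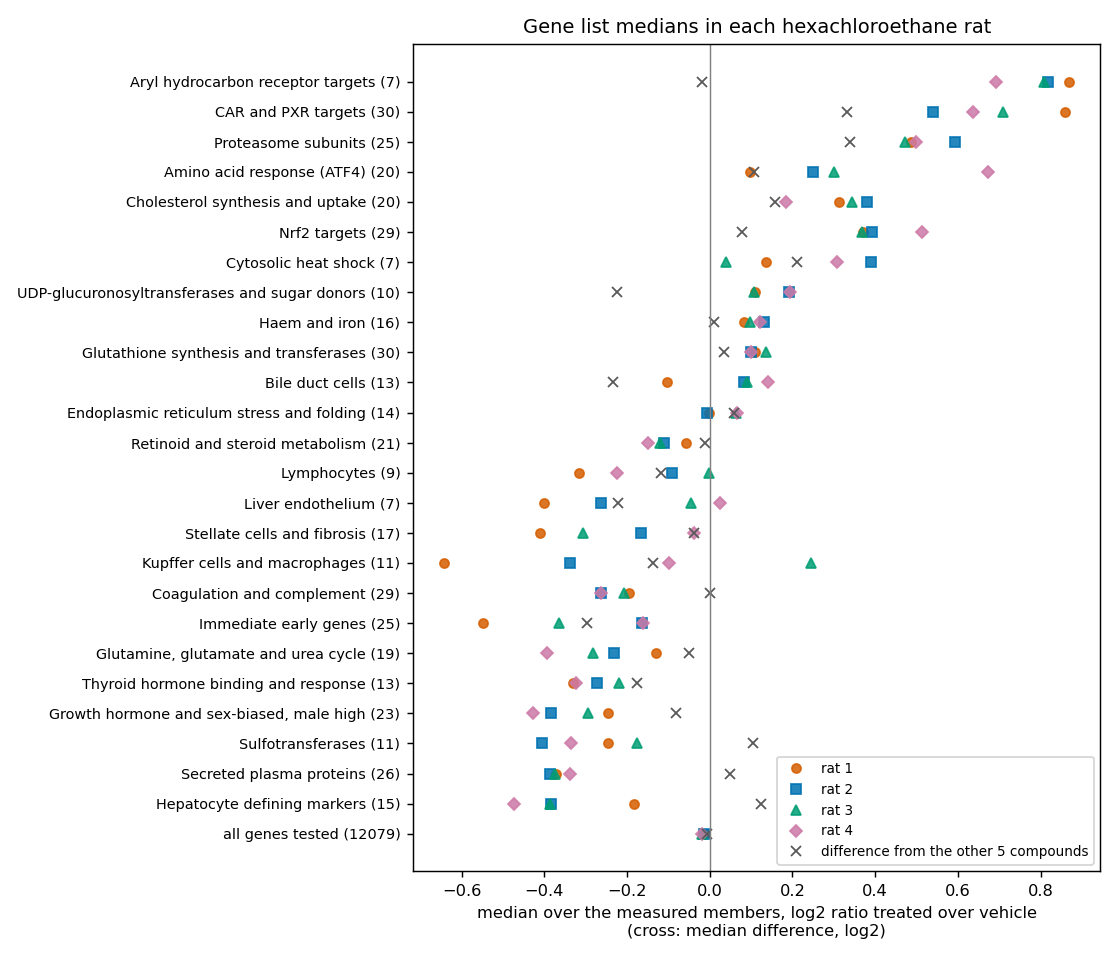
Median log2 ratio of treated over vehicle over the measured members of each gene list (number in brackets), with 1 symbol per hexachloroethane rat, and the median difference from the other 5 compounds as a cross. The medians of the proteasome list lie between 0.47 and 0.59 in the 4 rats and its cross at 0.34, while the secreted plasma proteins lie between -0.39 and -0.34 with their cross at 0.05; under median-only scaling the proteasome, heat shock, amino acid response, glucuronosyltransferase, glutathione, haem, cholesterol and endoplasmic reticulum medians fall below 0 and the lymphocyte median rises above it.

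Genes of the proteasome were higher as a set, each by a moderate amount. Of 35 subunits and helpers on the list 25 were measured, and 23 rose and 1, Psme3, fell. Their median was 0.56, against -0.02 over all genes tested. Against the other 5 compounds 21 were higher and 1 lower, with a median difference of 0.34. Both pairs of counts came out the same with any 1 of the 4 rats left out. Against tetracycline hydrochloride alone, scanned on the same day, 21 were higher and 0 lower among these 25. The direction against vehicle rests on the loess scaling: under median-only scaling 5 rose and 6 fell with a median of -0.01, whereas against the other 5 compounds 17 were still higher and 1 lower, with a median of 0.30.

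All 5 measured alpha ring subunits rose, with means from 0.56 to 0.79. Psma5 stood at 0.75, 0.86, 0.75 and 0.80 in rats 1 to 4 (0.79 ± 0.05, adjusted p = 5.4e-11) and 0.53 above the other 5 compounds (adjusted p = 2.9e-07). Psma7 stood at 0.74, 0.79, 0.69 and 0.70 (0.73 ± 0.05) and Psma2 at 0.59, 0.70, 0.63 and 0.64 (0.64 ± 0.05). No rat was below 0.43 in any of the alpha subunits. The 4 measured beta ring subunits rose too, from 0.29 for Psmb5, which carries the chymotrypsin-like active site, to 0.57 ± 0.03 for Psmb3. Psmb5 stood at 0.28, 0.37, 0.27 and 0.24 (adjusted p = 8.1e-06), with 0.27 above the other 5 (adjusted p = 1.6e-04).

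In the cap, which recognises and unfolds tagged proteins, the 7 measured subunits that are not ATPases rose by 0.42 to 0.95. Psmd2 stood at 0.83, 1.05, 0.96 and 0.98 (0.95 ± 0.09, adjusted p = 1.1e-11), the highest mean of the list, and 0.57 above the other 5 compounds (adjusted p = 2.9e-07). Psmd1 stood at 0.68, 0.72, 0.58 and 0.74 (0.68 ± 0.07) and Psmd8 at 0.50, 0.80, 0.71 and 0.68 (0.67 ± 0.13). Under median-only scaling Psma7, Psmb3, Psmc1, Psmc5, Psmd1 and Psmd8 lay between 0.03 and 0.16 and no longer passed against vehicle. Rat 2 was the highest of the 4 in Psmd2 and Psmd8, and rat 1 the lowest. The 5 measured ATPases of the cap, which pull the substrate in, rose by 0.29 (Psmc2) to 0.60 (Psmc1 and Psmc5). Each of these 21 core and cap genes also passed as higher against the other 5 compounds.

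Outside the core and cap 2 genes rose against vehicle and 2 did not. Of the 3 activator subunits that can replace the cap, Psme2, which interferon induces, rose by 0.31 ± 0.11, Psme1 stood at 0.06 ± 0.07 (adjusted p = 0.22), and Psme3, the nuclear activator, fell by 0.22 on the log2 scale (-0.27, -0.15, -0.23 and -0.24, adjusted p = 2.2e-05). Psme3 was also lower than under the other 5 (-0.19, adjusted p = 6.3e-04). Psme2 and the assembly factor Pomp (0.32 ± 0.11) did not pass against the other 5 (adjusted p = 0.33 and 0.38). Psmb5, Psmc2, Psme2 and Pomp were among the 6 that fell against vehicle under median-only scaling. Across the compounds the list's median against vehicle was 0.56 for hexachloroethane, 0.31 for 1-amino-2-methylanthraquinone, 0.32 for 3-(4-chlorophenyl)-1,1-dimethylurea, 0.13 for 1,2-dichlorobenzene, 0.11 for tetracycline hydrochloride and -0.03 for 1,2,3-trichloropropane.

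**Figure D2:**
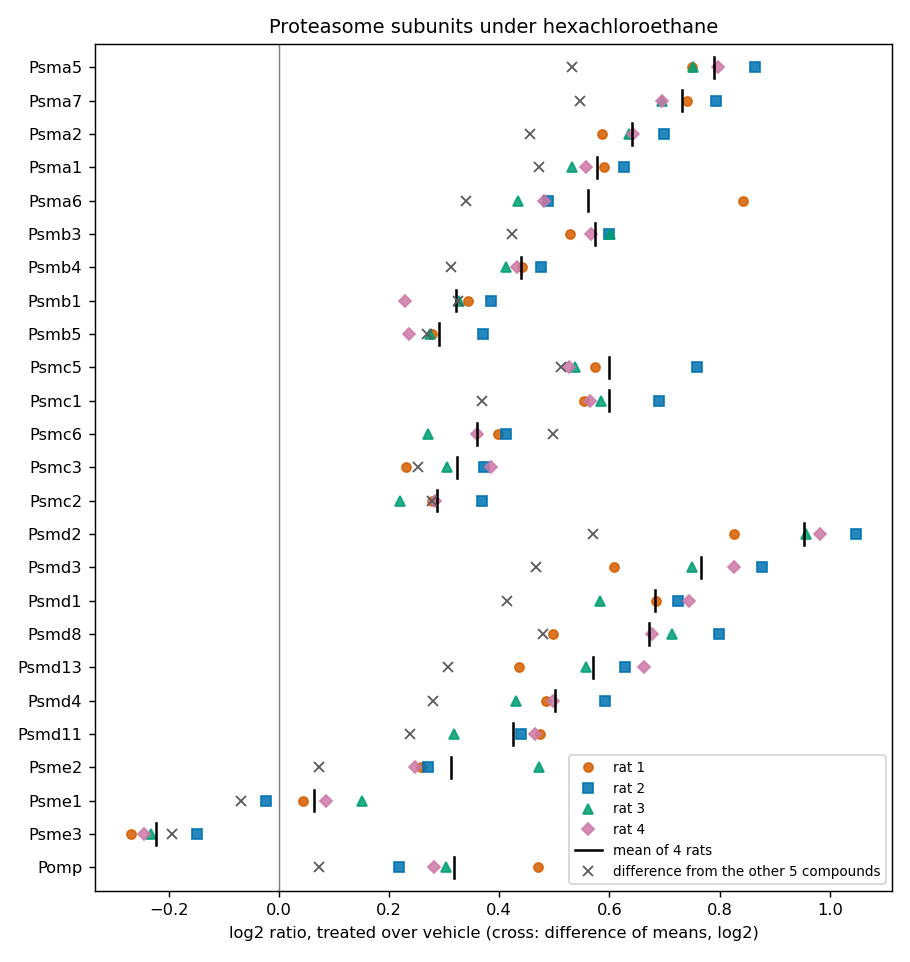
Log2 ratio of treated over vehicle for the 25 measured proteasome genes, 1 symbol per hexachloroethane rat, a bar at the mean of the 4 rats and a cross at the difference of means from the other 5 compounds; genes are grouped as alpha ring, beta ring, cap ATPases, other cap subunits, activators and assembly factor. The 4 rats of each core and cap gene sit above 0.21 and the crosses of those genes above 0.23, while Psme3 sits below 0 in all 4 rats; under median-only scaling only 5 of the 25 genes rose against vehicle.

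Promoters of the proteasome and Nrf2 lists were searched for the core of the antioxidant response element, the site that Nrf2 binds with a small Maf partner. Both lists were chosen because most of their members rose against vehicle under the loess scaling. The promoters ran from 250 bases before to 50 bases after each start in RefSeq's table for the rat build GRCr8. The core was written TGACNNNGC and sought on both strands. It was in 12.1% of all 33469 promoters and in 15.3% of the 4134 promoters of genes tested here. Of the Nrf2 list 25 of 29 measured genes matched a promoter, and 10 of their 28 promoters (35.7%) held the core. Of the proteasome list 24 of 25 matched, and 3 of 24 promoters (12.5%) held it. The share was 35.3% for the amino acid response list (6 of 17) and 40% for aryl hydrocarbon receptor targets (2 of 5). The stretches below lie upstream of the start, with the match in capitals, and show 4 genes of glutathione and epoxide metabolism that rose (Gpx2, Gsta3, Ephx1 and Gclm), 1 that did not (Gstp1) and the proteasome genes with an upstream match. A match is a description of the letters and shows no binding.
Gpx2 (chr6:101230034-101230066, minus strand): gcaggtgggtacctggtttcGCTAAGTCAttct
Gsta3 (chr9:31154952-31154988, plus strand, 1 of 2 listed starts): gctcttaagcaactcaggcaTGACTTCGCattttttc
Ephx1 (chr13:95263146-95263194, minus strand, 1 of 2 listed starts): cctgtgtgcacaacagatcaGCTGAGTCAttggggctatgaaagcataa
Gclm (chr2:213031943-213031991, plus strand): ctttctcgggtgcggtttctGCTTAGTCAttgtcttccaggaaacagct
Gstp1 (chr1:210769738-210769786, minus strand): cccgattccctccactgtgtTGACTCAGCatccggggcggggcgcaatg
Psmd1 (chr9:94157786-94157834, plus strand): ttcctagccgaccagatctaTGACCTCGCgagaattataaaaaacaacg
Psmb5 (chr15:32047411-32047459, minus strand): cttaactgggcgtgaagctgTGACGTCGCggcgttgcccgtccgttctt

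Nrf2 targets were higher against vehicle, and about evenly split against the mean of the other 5 compounds. Of 39 listed genes 29 were measured, 20 rose and none fell, with a median of 0.35. Against the other 5 compounds 6 were higher and 6 lower, with a median difference of 0.08. Against tetracycline hydrochloride alone, scanned on the same day, 14 were higher and 0 lower, with a median difference of 0.33. Under median-only scaling 8 rose and 9 fell against vehicle. Gpx2, a glutathione peroxidase of epithelia, stood at 2.46, 1.78, 2.38 and 2.58 (2.30 ± 0.36, adjusted p = 2.1e-11), with rat 2 the lowest. Gsr, which regenerates reduced glutathione, stood at 0.72, 0.71, 0.61 and 0.78 (0.70 ± 0.07, adjusted p = 6.7e-09), with no difference passing against the other 5 (0.06, adjusted p = 0.50). Gclm, the regulatory subunit of the enzyme that starts glutathione synthesis, rose by 0.57 ± 0.16 and was at 0.12 against the others (adjusted p = 0.55). Under median-only scaling Gsr was at 0.14 (adjusted p = 0.096) and Gclm at 0.16 (adjusted p = 0.215), and neither passed against vehicle.

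Glutathione transferases differed from the other compounds in both directions. Gsta2, of the alpha class, stood at 0.93, 0.82, 0.81 and 0.91 (0.87 ± 0.06, adjusted p = 8.5e-06) and 0.51 above the other 5 (adjusted p = 0.0071), though at 0.02 against vehicle under median-only scaling (adjusted p = 0.90). Gsta3, of the same class, stood at 2.48, 2.24, 2.31 and 2.50 (2.38 ± 0.13, adjusted p = 7.9e-07), and its difference from the other 5 was -1.73 (adjusted p = 2.8e-04). Within scan day that sign turned: Gsta3 was 0.84 above tetracycline hydrochloride (adjusted p = 0.15). Gstp1, the pi class transferase used as a marker of altered liver foci in rats, stood at -0.45, -0.27, -0.32 and -0.10 (adjusted p = 0.12), 1.78 log2 units under the mean of the other 5 (-1.78, adjusted p = 1.1e-07). That mean holds 4.64 for 1,2-dichlorobenzene and 2.14 for 1,2,3-trichloropropane. Hmox1, the haem oxygenase that Nrf2 often raises, stood at -0.48, 0.30, 0.47 and 0.01 and did not pass (adjusted p = 0.69), and Srxn1, a sulfiredoxin, was at 0.20 ± 0.18 (adjusted p = 0.089).

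Of 30 measured glutathione genes 15 rose and 7 fell against vehicle, the decreases at about the share over all genes (24.2%), with 6 higher and 13 lower against the other 5 compounds, and under median-only scaling 5 rose and 14 fell against vehicle. The microsomal transferase Mgst2 stood at 0.65, 0.65, 0.61 and 0.71 (0.65 ± 0.04, adjusted p = 4.3e-10), but at 0.13 under median-only scaling (adjusted p = 0.10). Its relative Mgst1 fell, at -0.34, -0.34, -0.50 and -0.62 (-0.45 ± 0.14, adjusted p = 5.8e-08). Gpx1, the abundant cytosolic glutathione peroxidase, stood at -0.71, -0.71, -0.76 and -0.89 (-0.77 ± 0.08, adjusted p = 1.5e-08) and 0.45 lower than under the others (-0.45, adjusted p = 1.3e-04). Gpx2 and Gpx1, peroxidases of the same family, thus lay on opposite sides of vehicle in all 4 rats.

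CAR and PXR targets were higher, among them genes for the electron and haem supply of the P450s. Of 36 listed genes 30 were measured, 20 rose and 5 fell, with a median of 0.73; against the other 5 compounds 17 were higher and 7 lower, and under median-only scaling 15 rose and 8 fell against vehicle. Por, the reductase that passes electrons to all microsomal P450s, stood at 0.83, 0.91, 0.99 and 0.74 (0.87 ± 0.10, adjusted p = 4.6e-07) and 1.01 above the other 5 (adjusted p = 9.4e-07), or 0.99 without rat 2 and 0.97 without rat 3. Its means under the other compounds ran from -0.56 to 0.18. Alas1, the rate-limiting enzyme of haem synthesis, stood at 1.15, 0.42, 0.37 and 1.20 (0.78 ± 0.45, adjusted p = 0.022) and 1.13 above the other 5 (adjusted p = 0.0063). Rats 1 and 4 were the high pair, and without rat 1 or rat 4 Alas1 no longer passed against vehicle (adjusted p = 0.097 and 0.12), nor did it under median-only scaling (0.085, adjusted p = 0.77); without rat 4 its difference from the other 5 was 0.99 (adjusted p = 0.039).

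Later steps of haem synthesis rose by less. Cpox rose by 0.26 ± 0.08, Alad by 0.24 ± 0.03 and Urod by 0.17 ± 0.05. Over the haem and iron list 7 of 16 measured genes rose and 4 fell against vehicle, and under median-only scaling none rose and 11 fell, Alad (-0.47), Urod (-0.30) and Cpox (-0.03) having turned below 0. The iron exporter gene Slc40a1 (-0.25 ± 0.15) fell and was lower against the other 5 (-0.44, adjusted p = 1.6e-04).

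Within the P450s and their neighbours the directions parted. Cyp2b15 stood at 2.12, 1.87, 2.03 and 2.17 (2.05 ± 0.13), Cyp3a23-3a1 at 1.00, 0.64, 0.84 and 1.12 (0.90 ± 0.21) and Cyp1a2 at 0.87, 1.04, 1.02 and 0.69 (0.91 ± 0.16). Cyp3a18, of the same family as Cyp3a23-3a1, stood at -0.82, -0.89, -0.97 and -0.78 (-0.86 ± 0.08, adjusted p = 3.0e-08) and 0.99 lower than under the others (-0.99, adjusted p = 1.1e-07). Closely related P450 genes can share signal on a probe, so these levels are uncertain. Fmo5, a flavin oxygenase, stood at -0.26, -0.86, -0.80 and -0.54 (-0.62 ± 0.27, adjusted p = 0.0036), while its mean was between 0.65 and 2.04 under each of the other compounds, a difference of -1.9996 (adjusted p = 8.7e-08). Ephx1, the microsomal epoxide hydrolase, rose at 0.89, 0.88, 0.74 and 1.02 and did not pass against the other 5 (0.13, adjusted p = 0.37). Cyp1a1, the classic aryl hydrocarbon receptor target, stood at 3.43, 0.98, 3.09 and 3.52, with rat 2 far below the rest. Under median-only scaling Cyp1a2 (0.23), Cyp3a23-3a1 (0.05) and Ephx1 (0.05) no longer passed against vehicle.

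Glucuronosyltransferases add a sugar to foreign compounds and hormones. Of 10 measured genes for glucuronosyltransferases and their sugar donors 4 rose and 1 fell, the donor gene Ugp2 (-0.42 ± 0.18). Against the other 5 compounds 2 were higher and 5 lower. Among those 5 was Ugt2b7, which was not well above background on any hexachloroethane array in either channel. It was kept only through other compounds, with 4.12 under 1,2-dichlorobenzene, so its lower value follows from that filter. Under median-only scaling 4 of the 10 rose and 5 fell against vehicle, with a median of -0.20. Ugt2b1 stood at 2.39, 2.53, 2.55 and 2.24, and Ugt2a1 at 1.11, 0.48, 0.86 and 0.95 (0.85 ± 0.27). Ugt1a1, the bilirubin transferase, rose by 0.34 ± 0.09 and was 0.31 above the other 5 (adjusted p = 8.4e-04). Ugt1a6 was at 0.12 ± 0.04 (adjusted p = 0.23) and 0.49 below the other 5 (-0.49, adjusted p = 1.8e-04), yet 0.03 above tetracycline hydrochloride within scan day.

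Sulfotransferases add sulfate instead. Of 11 measured genes 7 fell and 2, Sult1b1 and Sult2a1, rose, with a median of -0.36. Sult2a1 stood at 0.64, 0.90, 1.13 and 0.05 (adjusted p = 0.026) and did not pass without rat 1, 2 or 3 (adjusted p = 0.056, 0.092 and 0.15) or under median-only scaling (0.12). Sult2a1 had 5 probes, and only 2 of those besides the one used ran the same way. Against the other 5 compounds 3 were lower and 2 higher. Sult1c2 stood at -1.15, -0.58, -1.22 and -1.52 (-1.12 ± 0.39, adjusted p = 4.9e-07) and 0.83 below the others (-0.83, adjusted p = 1.6e-04); without rat 4 it was at -0.98. Sult1c2a, a near relative outside the list, stood at -0.60, -0.66, -0.64 and -0.87 (-0.69 ± 0.12). Sult2a6, a hydroxysteroid sulfotransferase, stood at -0.62, -0.61, -0.26 and -1.03 (-0.63 ± 0.31, adjusted p = 0.0020) against means of 0.65 to 1.63 under the other compounds, a difference of -1.77 (adjusted p = 2.2e-07). Sult1b1 rose at 0.63, 0.55, 0.50 and 0.78 (0.62 ± 0.12), though not under median-only scaling, where it was at -0.04. The direction of each sulfotransferase named here as lower was the same in all 4 rats.

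Among cytosolic chaperones, which hold and refold proteins, 4 of 7 measured genes rose and 1 fell, with a median of 0.28 (-0.05 under median-only scaling, with 2 higher and 3 lower). Against the other 5 compounds 4 were higher and none lower. Hsp90aa1, the inducible cytosolic HSP90, stood at 1.04, 1.17, 0.90 and 1.09 (1.05 ± 0.12, adjusted p = 4.9e-07) and 0.78 above the other 5 (adjusted p = 1.7e-04). Hsph1, a co-chaperone of the HSP70 machine, stood at 0.63, 0.73, 0.38 and 0.53 (0.57 ± 0.15) and 0.46 above the others (adjusted p = 0.0011). Under median-only scaling Hsp90aa1 was at 0.55, under 2-fold, and Hsph1 at 0.13 (adjusted p = 0.18). Hspa1a, an inducible HSP70, stood at 0.13, 0.58, 0.13 and 2.11 (0.74 ± 0.94, adjusted p = 0.011); without rat 4 it was at 0.28 and did not pass (adjusted p = 0.22). Dnaja1 fell (-0.31 ± 0.15). In the endoplasmic reticulum list 3 of 14 measured genes rose, near the share over all genes (18.2%), and 1 fell, Xbp1 (-1.60, -0.70, -0.57 and -0.34). The increases were led by Hsp90b1 (0.42 ± 0.10, and -0.14 under median-only scaling). The other 10 measured members of that list did not pass, among them the chaperone gene Hspa5 (-0.04 ± 0.10). The list's median was 0.03, at -0.01 without rat 4 and at -0.39 under median-only scaling.

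Genes of the amino acid response rose in rats 2, 3 and 4 more than in rat 1. Of 32 listed genes 20 were measured, 12 rose and 1 fell, with a median of 0.37 (-0.03 under median-only scaling, with 8 higher and 6 lower). The list's median was 0.10 in rat 1, 0.25 in rat 2, 0.30 in rat 3 and 0.67 in rat 4. Asns, the asparagine synthetase, stood at 0.56, 1.82, 1.74 and 2.19 (1.58 ± 0.71, adjusted p = 2.1e-06). Phgdh, the first enzyme of serine synthesis, stood at -0.25, 2.17, 1.82 and 2.03 (1.44 ± 1.14, adjusted p = 1.4e-04), so that rat 1 alone was below vehicle. Psat1, the next enzyme of that pathway, stood at 0.24, 0.55, 0.65 and 2.03, and without rat 4 its mean was 0.48 (adjusted p = 0.022). Rat 4 was the highest of the 4 in Asns, Psat1, Trib3, Atf4 and Fgf21.

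Fewer of these genes differed from the other compounds, with 5 of 20 higher and 1 lower. Atf4 itself stood at 0.25, 0.38, 0.39 and 0.91 (0.48 ± 0.29, adjusted p = 5.9e-04) and 0.52 above the other 5 (adjusted p = 0.0014), but at -0.18 against vehicle under median-only scaling. Slc3a2, the heavy chain of amino acid exchangers, stood at 0.22, 0.56, 0.49 and 0.85 (0.53 ± 0.26) and 0.41 above the other 5 (adjusted p = 0.0013). Its light chain gene Slc7a5 stood at 0.48, 0.51, 0.56 and 0.94 and did not pass there (-0.10, adjusted p = 0.52). Asns was 0.59 above the other 5, close to the threshold, and without rat 1 0.93 (adjusted p = 0.0013), whereas without rat 2, 3 or 4 it did not pass (adjusted p = 0.15, 0.15 and 0.27). Ddit3, a pro-apoptotic factor that ATF4 induces, was at 0.02 ± 0.09 (adjusted p = 0.80).

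The promoters of this list were searched for the element that ATF4 and CEBP factors bind, written TGATGNAAN and sought on both strands in the same windows. It was in 3.97% of all promoters, in 2.49% of those of genes tested and in 5 of the list's 17 promoters (29.4%), which belong to 16 of its 20 measured genes. Shown, with the match in capitals, are Trib3 and Fgf21, which rose, and Nupr1, which did not pass.
Trib3 (chr3:161275534-161275575, minus strand): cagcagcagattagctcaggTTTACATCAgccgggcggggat
Fgf21 (chr1:105221492-105221540, minus strand): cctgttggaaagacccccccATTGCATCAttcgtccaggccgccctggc
Nupr1 (chr1:190645929-190645977, minus strand): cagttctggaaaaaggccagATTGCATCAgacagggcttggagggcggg

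Trib3, a pseudokinase that ATF4 induces, stood at 0.10, 0.39, 0.92 and 1.54 (0.74 ± 0.63, adjusted p = 0.0033), and without rat 4 it was at 0.47 (adjusted p = 0.061). Fgf21, a hormone the liver secretes in fasting and stress, stood at -0.32, 0.25, 0.65 and 3.01 (0.90 ± 1.46, adjusted p = 0.029). Its value followed rat 4: without it the mean was 0.20 (adjusted p = 0.53), without rat 3 0.98 (adjusted p = 0.054), and without rat 1 or rat 2 1.304 and 1.11, past the threshold. Nupr1 stood at -0.76, 0.28, -0.40 and 0.42 (adjusted p = 0.70). Trib3 and Fgf21 ordered the rats alike, lowest in rat 1 and highest in rat 4, while in Nupr1 rat 2 stood above rat 3.

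Glutamine and urea genes were lower. Of 19 measured genes 10 fell and none rose, with a median of -0.30, and 4 were lower and 2 higher against the other 5 compounds. Glul, which makes glutamine in perivenous hepatocytes, stood at -1.47, -1.27, -1.11 and -0.98, and Slc1a2, a glutamate importer found there too, at -1.2998, -0.93, -1.35 and -1.23. Both were lower than the mean of the other 5 (-1.09, adjusted p = 4.1e-08, and -0.71, adjusted p = 2.7e-04). Under 1,2-dichlorobenzene, however, Slc1a2 was at -2.055, below hexachloroethane, and Glul at -0.98. Under the remaining compounds Glul lay between -0.04 and 0.23 and Slc1a2 between -0.92 and 0.72. Urea cycle genes fell by less: Ass1 stood at -0.18, -0.60, -0.61 and -0.78, Cps1, the entry enzyme, at -0.26, -0.59, -0.44 and -0.91, and Asl at -0.52, -0.19, -0.25 and -0.42. None of these 3 passed against the other 5 (adjusted p = 0.18, 0.75 and 0.40). Oat, which turns ornithine to glutamate, stood at -1.70, -2.01, -2.01 and -3.12, lowest in rat 4, with no difference passing from the others (-0.43, adjusted p = 0.33).

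Immediate early and growth arrest genes were lower in rats 1, 3 and 4 and nearer to vehicle in rat 2. Of 25 measured genes 11 fell and 1, Gadd45b, rose, with a median of -0.28; against the other 5 compounds 7 were lower and 1 higher. Dusp1, a phosphatase that shuts off stress kinases, stood at -1.96, -0.16, -2.26 and -2.20 (-1.64 ± 1.00, adjusted p = 3.1e-04). Myc stood at -1.54, -0.22, -1.64 and -1.40 (-1.20 ± 0.66, adjusted p = 0.012), and did not pass without rat 1, rat 3 or rat 4 (adjusted p = 0.052, 0.068 and 0.053). Gadd45a, a sensor of DNA damage, stood at -1.05, -0.18, -0.99 and -0.65 (-0.72 ± 0.40, adjusted p = 0.019), and without rat 1 or rat 3 did not pass (adjusted p = 0.089 and 0.092). Jun stood at -0.66, -0.22, -1.04 and -0.56 (adjusted p = 0.033), a call also lost without rat 1, 3 or 4 (adjusted p = 0.079, 0.17 and 0.076).

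Members of the Gadd45 family parted. Gadd45g stood at -2.27, -1.22, -2.78 and -2.46 (-2.19 ± 0.68) while Gadd45b, a CAR target, stood at 0.91, 0.12, 0.71 and 0.53 (0.57 ± 0.34, adjusted p = 0.0014) and 0.66 above the other 5 (adjusted p = 0.0019). Rat 2 was nearest to vehicle in all 3 of the family. Gadd45g was 1.45 below the other 5 (-1.45, adjusted p = 0.014), and without rat 3 or rat 4 it did not pass there (adjusted p = 0.076 and 0.056). Its means were -1.79 under 3-(4-chlorophenyl)-1,1-dimethylurea and -1.41 under 1,2-dichlorobenzene, and between -0.56 and 0.54 under the remaining compounds. Ier3 fell in all 4 rats (-0.89, -0.55, -0.91 and -0.86) and against the other 5 (-0.72, adjusted p = 2.8e-04). Egr1 stood at -0.77, -0.29, -1.04 and 1.53 and did not pass (adjusted p = 0.77).

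Enzymes of retinoid and steroid metabolism parted into 6 that rose and 10 that fell of 21 measured, and 7 were lower and 1 higher against the other 5 compounds. Under median-only scaling 2 rose and 16 fell against vehicle. Adh1c, an alcohol dehydrogenase that also oxidises retinol, stood at -1.20, -1.67, -1.43 and -1.06 and far below the other 5 (-1.496, adjusted p = 5.3e-07), and Adh7 at -0.62, -1.08, -0.85 and -0.42 (-0.74 ± 0.28) and 0.77 below (-0.77, adjusted p = 2.4e-04). Cyp26b1, which clears retinoic acid, stood at -0.68, -0.90, -0.86 and -0.88 (-0.83 ± 0.10, adjusted p = 0.0042) and 0.93 below the others (-0.93, adjusted p = 0.0063). Hsd11b1, which regenerates active glucocorticoid, stood at -0.90, -0.67, -0.62 and -0.52 (-0.68 ± 0.16) and 0.65 below (-0.65, adjusted p = 8.1e-06). Aldh1a1, a retinal dehydrogenase, went the other way at 1.27, 1.00, 1.02 and 1.61 (1.22 ± 0.29), but 0.95 below the other 5 (-0.95, adjusted p = 4.4e-04), with 0.29 above tetracycline hydrochloride within scan day. Under median-only scaling it was at 0.70 against vehicle, under 2-fold.

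Most thyroid hormone carriers and transporters measured were lower. Of 13 measured genes 7 fell and 1, Me1, rose, and 4 were lower and 2 higher against the other 5 compounds. Serpina7, the thyroxine-binding globulin, stood at -2.73, -1.05, -2.17 and -1.53, and Slc16a10, an aromatic amino acid and thyroid hormone transporter, at -0.75, -0.44, -0.74 and -1.45 (-0.85 ± 0.43, adjusted p = 3.1e-04). Ttr, another main carrier, stood at -0.62, -0.33, -0.22 and -0.63 (-0.45 ± 0.20) and did not pass against the other 5 (0.12, adjusted p = 0.39). Alb, also on the list, was at 0.01 ± 0.14 and did not pass against vehicle (adjusted p = 0.96), nor did Dio1, Gpd2, Klf9 and Thrsp. Me1, malic enzyme, is a thyroid hormone target and also in the Nrf2 list, and stood at 1.303, 1.54, 1.44 and 0.79, with a mean of 0.92 under median-only scaling. The male-high list, set by pulsed growth hormone, had 13 of 23 measured genes lower and 1 higher. Its best known member Cyp2c11 stood at -0.23, -0.38, -0.34 and -0.41 (adjusted p = 0.088), and lay 0.83 above the other 5 (adjusted p = 0.0014), under each of which its mean was between -1.79 and -0.53.

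Plasma proteins made by hepatocytes were lower against vehicle by much the same amount in each rat, and mostly not different from the other compounds. Of 26 measured secreted proteins 17 fell and none rose, with a median of -0.39 and rat medians from -0.39 to -0.34; against the other 5 compounds 5 were higher and 5 lower, with a median difference of 0.05. Ambp, the precursor of a plasma protease inhibitor, stood at -1.13, -0.88, -0.99 and -0.91 (-0.98 ± 0.11, adjusted p = 3.0e-11), with -0.03 against the others (adjusted p = 0.78). Serpind1 stood at -0.74, -0.75, -0.71 and -0.71 (-0.73 ± 0.02). Itih3 (-0.94 ± 0.07), Serpind1 and Ahsg (-0.88 ± 0.07) were also lower than under the other 5 (-0.39, -0.29 and -0.35). Albumin, Alb, was at 0.01 ± 0.14 (adjusted p = 0.96). Among clotting and complement genes 17 of 29 fell and none rose, led by Fga, a fibrinogen chain, at -0.97, -0.88, -0.78 and -0.85 (-0.87 ± 0.08, adjusted p = 9.2e-10) and 0.56 below the other 5 (-0.56, adjusted p = 5.0e-06).

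Cholesterol genes were higher against vehicle in 10 of 20 measured and lower in none, with a median of 0.36 (-0.03 under median-only scaling, with 1 higher and 7 lower). Idi1, an isomerase of the sterol pathway, stood at 0.84, 0.85, 1.06 and 0.49.

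Among genes changed from 1.5- up to 2-fold, 118 rose and 173 fell. Of those, 43 increases and 54 decreases had a symbol, ran the same way in all 4 rats and passed in the same direction against the other 5 compounds. The 15 with the smallest adjusted p there were taken in each direction. Of the 15 increases 7 were the proteasome genes Psma2, Psma5, Psma7, Psmc5, Psmd1, Psmd2 and Psmd8. Prdx6, a peroxiredoxin that reduces lipid peroxides, stood at 0.58, 0.76, 0.69 and 0.71 (0.68 ± 0.07) and 0.55 above the others (adjusted p = 2.8e-08). Gaa, the lysosomal acid alpha-glucosidase, stood at 0.74, 1.00, 0.96 and 1.08 (0.95 ± 0.15) and 0.59 above the others (adjusted p = 1.4e-07). Slc39a4, a zinc importer, stood at 0.95, 0.84, 0.89 and 0.82 (0.88 ± 0.06) and 0.98 above them (adjusted p = 1.4e-06), while Mt1, the zinc-binding metallothionein, stood at -1.13, -0.98, -0.90 and -0.48 (-0.87 ± 0.28) and far below them (-1.998, adjusted p = 3.7e-05).

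The other moderate increases were Tmtc4 (0.85 ± 0.20), the DNA damage sensor Parp1 (0.79, 0.51, 0.73 and 0.75), the inflammatory caspase gene Casp4 (0.67 ± 0.10), the clathrin light chain gene Cltb (0.63 ± 0.06) and Por. The moderate decreases included Pon3, a paraoxonase of the blood, at -0.80, -1.09, -0.95 and -0.74 (-0.89 ± 0.16), and Tymp, a thymidine phosphorylase, at -0.65, -1.26, -0.93 and -0.78. Net1, a guanine nucleotide exchange factor, stood at -1.46, -0.61, -0.85 and -0.96, and Ccnl1, a cyclin of the splicing machinery, at -0.34, -0.93, -0.91 and -0.83, so that rat 1 was the most changed in Net1 and the least in Ccnl1. Bmyc (-0.73 ± 0.18), the histone gene Hist1h4b (-0.72 ± 0.17) and Pcsk1n (-0.78 ± 0.19) completed the set with Dcn, Fga, Fmo5, Hsd11b1, Cyp3a18, Sult1c2a and Sult2a6. Under median-only scaling Prdx6 was at 0.08 and no longer passed against vehicle (adjusted p = 0.28).

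**Figure D3:**
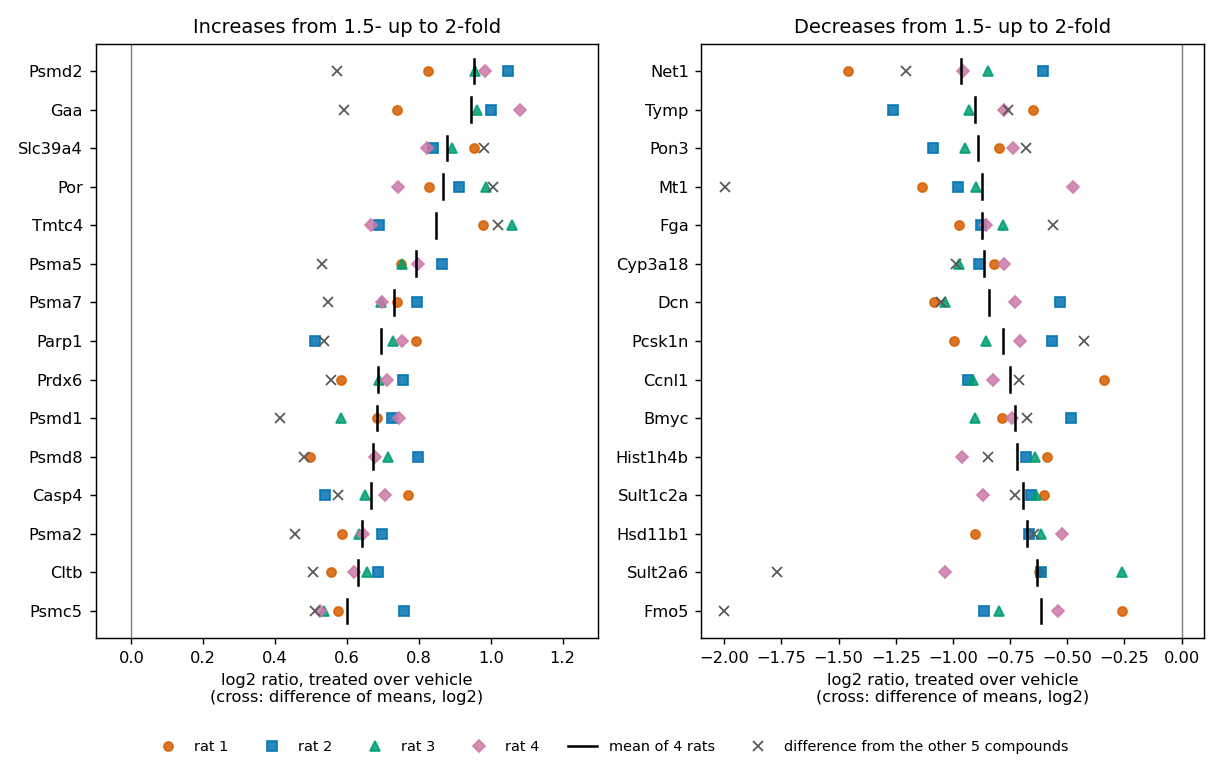
The 15 increases (left) and 15 decreases (right) of 1.5- up to 2-fold with the smallest adjusted p against the other 5 compounds, as log2 ratios of treated over vehicle with 1 symbol per rat, a bar at the mean and a cross at the difference from the other 5 compounds. Fmo5, Mt1 and Sult2a6 have crosses at -1.9996, -1.998 and -1.77, well beyond their means of -0.62, -0.87 and -0.63 against vehicle, and 7 of the 15 increases are proteasome genes, whose direction against vehicle rests on the loess scaling.

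Beyond the 10 largest changes in each direction, several called genes belonged to none of these groups. Anxa7, an annexin, stood at 1.44, 1.06, 1.62 and 1.61, Zdhhc2, a palmitoyltransferase, at 1.68, 1.05, 1.38 and 1.45, and Cavin3, a coat protein of caveolae, at 1.18, 1.57, 1.33 and 1.14. App, the amyloid precursor, stood at 1.19, 1.16, 1.39 and 1.32 (1.27 ± 0.11) and 0.67 above the other 5 (adjusted p = 1.1e-05). Under 1,2-dichlorobenzene, however, App was at 1.55, above hexachloroethane, and under 1-amino-2-methylanthraquinone at 1.04. Under the remaining compounds it lay between -0.07 and 0.26. Zfp354a, a zinc finger repressor, stood at 1.58, 0.62, 1.41 and 1.96 (1.39 ± 0.56, adjusted p = 0.022) and 2.23 above the other 5 (adjusted p = 0.0030). It did not pass against vehicle without rat 1, 3 or 4 (adjusted p = 0.063, 0.063 and 0.10). Under the other corn oil compounds its means were below vehicle, between -1.57 and -0.71, and under tetracycline hydrochloride its mean was 0.35. Tsku, a secreted protein of the liver, stood at 1.29, 1.35, 0.93 and 1.95 and 1.79 above the other 5 (adjusted p = 0.0018). Il2ra (1.04 ± 0.17; 0.98 without rat 3) is uncertain, since its other probe ran the opposite way. Prss8, a membrane serine protease, stood at 2.36, 0.39, 0.28 and 2.23, high in rats 1 and 4 and low in rats 2 and 3, and without rat 1 it fell below 2-fold (0.96). Under median-only scaling Cavin3 (0.67), App (0.97), Tsku (0.97) and Il2ra (0.77) were under 2-fold.

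Among the called decreases past the first 10, Sds, a serine dehydratase, stood at -0.98, -1.36, -0.99 and -1.92, and Inmt, a methyltransferase, at -0.98, -1.18, -0.75 and -1.29 (-1.05 ± 0.24), with no difference passing from the others (0.42 and 0.93, adjusted p = 0.38 and 0.056). Apoc3, which slows the clearance of triglyceride-rich lipoproteins, stood at -1.11, -1.18, -1.38 and -0.94 (-1.15 ± 0.18) and -0.11 against the others (adjusted p = 0.39). Slc6a6, the taurine transporter, stood at -0.58, -1.01, -1.65 and -1.28. Tmem176a stood at -1.04, -1.33, -1.15 and -0.83 (-1.09 ± 0.21) and Sulf2, a sulfatase that trims heparan sulfate, at -0.88, -1.14, -1.28 and -0.90 (-1.05 ± 0.20), and both were lower against the other 5 (-0.81, adjusted p = 2.2e-07, and -0.78, adjusted p = 2.1e-06). Hhex, a homeobox factor of hepatocytes, stood at -1.98, -0.47, -0.85 and -1.42, and without rat 1 did not pass (adjusted p = 0.070). Rgs3 stood at -2.41, -0.47, -0.30 and -0.82, and without rat 1 its mean was -0.53 (adjusted p = 0.21). Hmga1 stood at -0.04, -2.04, -1.02 and -1.30, with rat 1 near vehicle, and did not pass without rat 2 or rat 4 (adjusted p = 0.11 and 0.060). Hmga1 had 3 probes, and only 1 of those besides the one used ran the same way. Sulf2 and Slc6a6 fell short of 2-fold without rat 3, Inmt without rat 4 and Sez6 (-1.08 ± 0.28) without rat 2, at -0.97, -0.95, -0.97 and -0.9997.

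Markers of other liver cells varied between the rats. In bulk tissue fewer cells of a type and less RNA per cell cannot be told apart. By the adjusted p alone 24.2% of all genes fell and 18.2% rose, and the marker counts below are to be read beside these shares. Of 20 Kupffer cell and macrophage markers 11 were measured, 2 fell, which is under the share over all genes, and none rose. These were Mrc1 (-0.47) and Ptprc (-0.23), of which Ptprc did not pass without rat 1, 2 or 4 (adjusted p = 0.20, 0.16 and 0.11); the 11 signals summed to 75720 to 134100 for treated RNA, against 108300 to 112200 for vehicle RNA. The log2 ratio of that sum was -0.52, -0.28, 0.26 and -0.04 in rats 1 to 4, lowest in rat 1 and highest in rat 3. The sum over 7 measured of 18 endothelial markers stood at -0.31, -0.16, 0.03 and 0.04, with treated sums of 32280 to 40340 against 39300 to 39990 in vehicle, and 3 of the 7 fell. That over 17 measured of 24 stellate cell and fibrosis markers stood at -0.31, -0.10, -0.22 and 0.07, with sums of 34850 to 46490 against 43300 to 44260, and 9 fell. Lymphocyte markers, with 9 measured of 20 and 5 lower, had treated sums of 3649 to 4494 against 4439 to 4493 (-0.29, -0.24, 0.02 and -0.30), and the defining Cd3e was not well above background. Under median-only scaling 3 of the 9 rose and 2 fell against vehicle, with a median of 0.11. Rat 1 was lowest in the Kupffer, endothelial and stellate sums and rat 4 in the lymphocyte sum. The part of these cells in the results was not tested.

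Stellate and portal matrix genes were the clearest decreases among these markers. Dcn, decorin, stood at -1.08, -0.53, -1.04 and -0.73 (-0.84 ± 0.26, adjusted p = 3.4e-06) and 1.05 below the other 5 compounds (-1.05, adjusted p = 2.6e-06), and Lum, lumican, at -1.10, -0.16, -1.33 and -1.29 (-0.97 ± 0.55) and 1.01 below (-1.01, adjusted p = 3.3e-04). Rat 2 was nearest to vehicle in both. Without rat 1 or rat 3 the difference of Dcn from the other 5 was -0.97 and -0.99, and that of Lum under 2-fold without rat 1, 3 or 4 (-0.96, -0.89 and -0.90). Collagens Col1a1 (-0.06 ± 0.14) and Col3a1 (-0.09 ± 0.27) did not pass. Bile duct markers split: of 13 measured of 19, 4 rose, among them Krt8 (0.80, 1.37, 0.87 and 0.98, with a mean of 0.88 without rat 2 and 0.56 under median-only scaling) and Epcam (1.02, 0.55, 0.78 and 1.06), and 1, Spp1, fell (-0.47; adjusted p without rat 1, 3 or 4 of 0.10, 0.12 and 0.090, and of 0.14 under median-only scaling), while the defining duct keratins Krt7 (0.03 ± 0.16) and Krt19 (0.03 ± 0.31) did not pass. The summed duct signal was 136000 to 205200 against 112100 to 117800 in vehicle (0.39, 0.87, 0.21 and 0.61), highest in rat 2. That sum followed its brightest member, Krt18, which stood at 0.36, 0.87, 0.12 and 0.58. The mean log2 vehicle signal of Krt18 was 16.51, against 13.33 for Krt8, so the sum does not speak for the other duct markers. Hepatocyte markers, all 15 measured, had the sums that were brightest by far, 1459000 to 1587000 against 1927000 to 1990000, with 9 lower, 2 higher, and 2 lower and 5 higher against the other 5.

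The rats disagreed on few genes but on some of the most changed. The median SD over the 4 rats was 0.10 across all genes, with 238 genes above an SD of 0.5. Rat 2 had the smallest change of the 4 in 55 of the 104 called genes, 37 of the 55 higher and 18 of the 49 lower, and its median change in the called direction was 1.15, against 1.4, 1.51 and 1.496 in rats 1, 3 and 4. Rat 4 had the largest change in 40 of the 104. Samd7 stood at 2.59, 1.26, 2.41 and 2.66, Nol3, an inhibitor of apoptosis, at 0.47 in rat 2 and from 1.305 to 2.15 in the others, and Mme, a membrane peptidase, at -1.89, -0.71, -2.20 and -1.91, each least changed in rat 2.

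Among the 10 genes with the largest SD, Fabp4, a fatty acid carrier of fat cells and macrophages, stood at -0.34, 0.12, 0.03 and 2.73 and did not pass (adjusted p = 0.078). Markers of fat and skeletal muscle, with 7 measured of 17, had a summed log2 ratio of 0.89 in rat 4 and between -0.36 and -0.10 in rats 1 to 3. That sum includes Fabp4 itself, so it is no separate sign. In rat 4 the other measured members lay between -0.74 (Pparg) and 0.22 (Acta1), and Lep and Ckm were not well above background. The part of fat or muscle in rat 4's values was not tested. Onecut1 was at -2.47 in rat 1 and between -0.14 and 0.58 in the others, and Rag1 at 0.85 in rat 1 and between -1.60 and -1.43 in the others. Pak4 was at -2.66 in rat 2 and -0.31, -0.08 and -0.04 in rats 1, 3 and 4; its second probe ran the opposite way, and without rat 2 its mean was -0.14. Noct, a deadenylase with a daily rhythm, stood at 2.47, 0.46, 0.09 and 1.21, did not pass against vehicle (adjusted p = 0.10), and lay 2.37 above the other 5 compounds (adjusted p = 0.0035). Much of that difference lay in the other compounds: means of Noct were between -2.34 and -1.24 under those in corn oil, and 0.34 under tetracycline hydrochloride.

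At the other end were genes that the rats shared closely. Ces2a, a carboxylesterase, stood at 1.15, 1.06, 1.15 and 1.17 (1.13 ± 0.05), 0.93 above the other 5 (adjusted p = 2.5e-08), though at 0.63 under median-only scaling. Car3, a carbonic anhydrase, stood at -3.01, -2.88, -2.75 and -3.05, and Hao2, a peroxisomal oxidase, at -1.08, -0.89, -0.84 and -1.18 (-1.0005 ± 0.16), which fell short of 2-fold without rat 1 or rat 4 (-0.97 and -0.94).

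**Figure D4:**
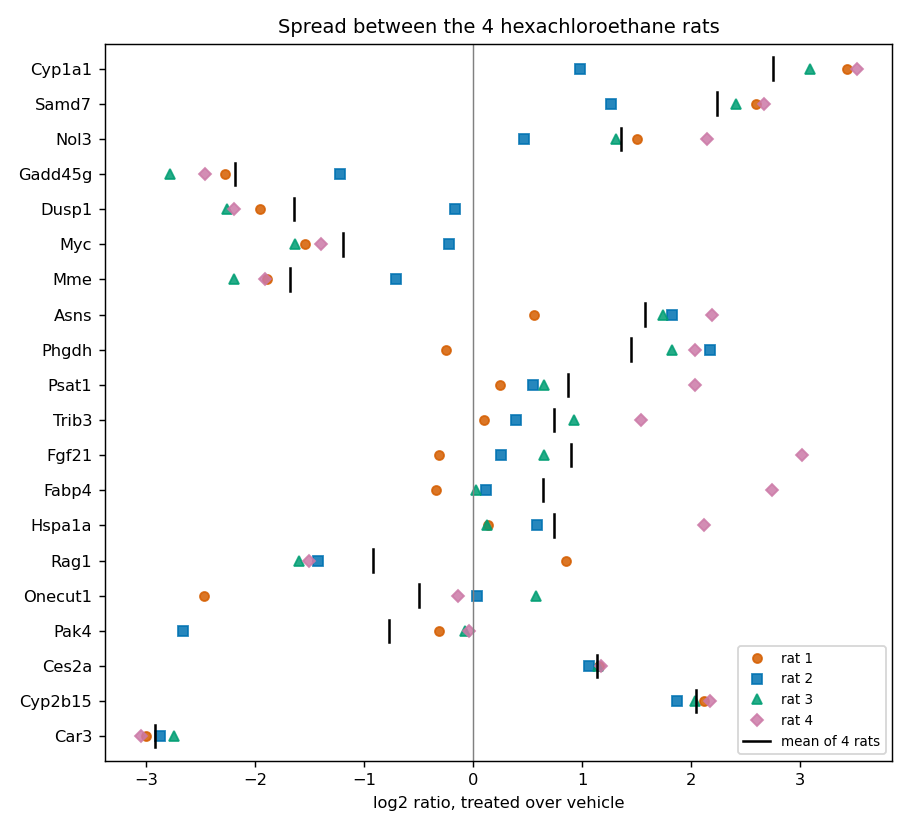
Log2 ratio of treated over vehicle in each hexachloroethane rat, with a bar at the mean of the 4, for genes on which the rats parted and, in the bottom 3 rows, genes they shared. Rat 2 is the least changed in Cyp1a1 (0.98) and Dusp1 (-0.16), rat 1 lies alone below 0 in Phgdh (-0.25) and rat 4 alone above 1 in Fgf21 (3.01) and Fabp4 (2.73).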

How the data were processed

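Liver RNA of 24 rats was hybridised to 2-colour Agilent arrays, 1 treated rat and a vehicle pool on each. Per the file headers, the authors' intensity values came from Agilent Feature Extraction 9.1.3.1, whose log10 ratio of Cy5 over Cy3 was turned so that treated stands over vehicle. The log2 values deposited by the authors in the series table were used only as an alternative, and so was that log10 ratio; the medians of the table's hexachloroethane columns were 0.054, 0.064, 0.055 and 0.061. Mean and background intensities were corrected with normexp (offset 50) and scaled by loess within each array in limma 3.58.1 under R 4.3.3, control and outlier spots left out. Of 21900 probes 16768 were kept, giving 12079 genes. All 6 compounds were fitted together with lmFit and eBayes (18 residual degrees of freedom), and p-values were adjusted by Benjamini-Hochberg over all genes. For a gene with several probes, the brightest stood for it. The script was tested on simulated data first. Slide and compound cannot be told apart, since no slide held more than 1 compound. Alternatives were the scaling, the source of the values, the probe rule, the fold threshold, the samples fitted, each rat left out and the replicate number as a block. The genes, lists and groups described were chosen with earlier results of these data known. Named genes were the 30 largest called increases and decreases with a symbol, the 15 moderate changes in each direction, the 10 largest and 10 smallest SDs, and from each list up to 8 members with the smallest adjusted p and 4 that did not pass; members named outside this rule were chosen after their values were seen. Labels call the samples biological replicates, and separate rats are taken as separate samples.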

Additional observations from a re-analysis of the deposited data

Results flagged for a closer look

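In 12 of 177 results examined (152 genes and 25 list medians), the highest or lowest of the 4 rats lay so far from the nearest other that the gap took up most of the range. Chance gives such a gap in about 1 in 20 groups of 4 that were not chosen by their values. The genes examined include the 10 with the largest SD between rats, so that rate cannot be set against the count here. Rat 2 was the rat apart in 5 of the 12 results: Cyp1a1 (0.98), Dusp1 (-0.16), Myc (-0.22) and Ier3 (-0.55), in each of which it was the least changed, and Pak4 (-2.66). Rat 1 was apart in Phgdh (-0.25), Rag1 (0.85) and Cyp26b1 (-0.68). Rat 4 was apart in Fabp4 (2.73), Alb (0.21) and Cpox (0.15), and rat 3 in Psme2 (0.47). None of the 25 list medians showed such a gap.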

How the results depend on the processing

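Against vehicle, median centring gave 24 higher and 628 lower (652 in all), or 129 and 236 (365) relative to its shift, with the median SD between rats rising from 0.10 to 0.23. The scanner's log ratio gave 122 and 220 (342), and the values of the series table gave 121 and 244 (365); against the other 5 compounds these gave 87 and 114 (201), and 83 and 115 (198). A 1.5-fold threshold gave 173 and 222 (395), and 123 and 121 (244) against the other 5. Leaving out each rat gave 90 to 121 called against vehicle and 67 to 87 against the other 5. Relative to the median-centring shift, an alternative chosen after seeing the data, the list medians that turned sign were glucuronosyltransferases -0.20, proteasome -0.0058, heat shock -0.052, endoplasmic reticulum -0.39 (with each rat left out, -0.0050 to 0.079), amino acid response -0.031, glutathione -0.072, haem -0.34, cholesterol -0.027 and lymphocytes 0.11. Genes that turned were Alad (-0.47), Atf4 (-0.18), Cpox (-0.026), Hsp90b1 (-0.14), Pomp (-0.24), Psmb5 (-0.32), Psmc2 (-0.17), Psme2 (-0.24), Sult1b1 (-0.045) and Urod (-0.30). Within scan day, against tetracycline hydrochloride, Alb (-0.12), Aldh1a1 (0.29), Gsta3 (0.84) and Ugt1a6 (0.025) turned. The cause of these changes was not tested. With the replicate block, 105 genes were called against vehicle (56 higher, 49 lower) and 74 against the other 5 (40 and 34); same-numbered rats of different compounds correlated in their deviations at -0.26 to 0.39, with medians of -0.0026 to 0.080 for the 4 numbers against -0.014 for different numbers. Not every pair was above 0.1, so the numbers were not taken to pair the rats. Scan day as a random block was not run, because it could not be fitted with compounds nested in days. Probes not well above background, and pooled vehicle RNA, limit what can be said of weak genes.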
